A study of Mus musculus with 8 samples.

Results

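A set of genes of the neutrophil primary granule program was followed across sorted mouse bone marrow: Mpo, Elane, Prtn3, Ctsg and Ms4a3, which make 5 of the 18790 gene symbols in the files. They were chosen by name, with earlier results of these data known. All 5 passed the filter on low counts and are among the 11965 genes tested. The RNA came from the femoral marrow of C57BL/6 mice that had received no treatment. They bore a Csf1r-EGFP transgene, in which the promoter of the macrophage growth factor receptor drives green fluorescent protein. Each group had 4 biological replicates. The CD11b+ group was gated as CD11b+, F4/80+, Ly6G-, VCAM1+ and low for the reporter, and the CD11b- group as CD11b-, F4/80+, VCAM1+ and positive for the reporter. The submitters put the word macrophage in quotation marks for both sorts. The labels used here give no age or sex of the mice and do not say whether the marrow of several animals was pooled.

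Primary, or azurophil, granules are the first granules a developing neutrophil makes, at the promyelocyte stage, before the secondary granules that hold proteins such as Ngp and Camp. Their main contents are myeloperoxidase, which turns hydrogen peroxide and chloride into hypochlorous acid, and a family of related serine proteases that are made as inactive precursors, trimmed by the dipeptidyl peptidase cathepsin C and packed on the proteoglycan serglycin. The genes for these proteins are switched on in granulocyte-monocyte progenitors and promyelocytes, and their transcripts decline as the neutrophil matures, while the proteins stay in the granules. C/EBP factors, PU.1, MYB, RUNX1 and GFI1 are known regulators of this step.

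The 5 genes lie on 4 chromosomes, with Elane and Prtn3 as neighbours on chromosome 10. One short stretch is shown from the 250 bases before each RefSeq start (build GRCm38.p6), because the letters GGAAGT, a core bound by ETS factors such as PU.1, occurred in all 5. Capitals mark those letters, and each stretch is written along the strand of its gene. The intervals are chr11:87793550-87793579 (plus strand) for Mpo, chr10:79886217-79886246 (plus) for Elane, chr10:79879562-79879591 (plus) for Prtn3, chr14:56102762-56102791 (minus) for Ctsg and chr19:11640889-11640918 (minus) for Ms4a3.
Mpo: tggagagagagaGGAAGTtgcctttgtccc
Elane: gtgtcccagggaGGAAGTagggctgtggcc
Prtn3: aaactggaaggaGGAAGTgggacccacagc
Ctsg: agaggaagaaaaGGAAGTagtcacctgttt
Ms4a3: tggtatacttggGGAAGTgggtgggccatt
On either strand, GGAAGT occurred in 19.7% of 32851 promoter windows of the same length, and it was picked after these sequences had been read. Counted from the start site, the match ended at base -50 in Ms4a3, -78 in Elane, -88 in Prtn3, -200 in Ctsg and -217 in Mpo. Some other motifs were searched on both strands too. The PU box GAGGAA, which overlaps the GGAAGT match in Mpo, Elane and Prtn3, was found in those 3 genes and in Ctsg (23.3% of all windows). The MYB letters AACNG in Mpo, Elane, Prtn3 and Ctsg (74.2% of windows), the RUNX letters TGTGGT in Ctsg (4614 of 32851 windows), and the C/EBP letters TTNNGNAA in Ms4a3 (36.8%), where they overlap the GGAAGT match. These matches describe the sequence and are not measured binding sites.

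All 5 genes were higher in the CD11b+ sort, by 10.2-fold for Ctsg to 66.1-fold for Elane, and no CD11b- library reached the lowest CD11b+ library for any of them. Over all genes tested, 14.6% were called higher in CD11b+ (15.0% lower and 29.7% in either direction), by edgeR's quasi-likelihood test with Benjamini-Hochberg adjustment at 0.05, and 18.1% had CD11b+ libraries that were all above the CD11b- libraries. A call together with a fold of at least 8 was made for 4.12% of genes tested. Levels are given as CPM, the counts of a gene scaled by the total of its library. Together the 5 genes held 6.67% ± 1.29 of all counts in CD11b+ (SD, n = 4, from 5.79% to 8.52%) and 0.335% ± 0.287 in CD11b- (n = 4, from 0.0471% to 0.683%). In bulk samples such as these, fewer cells that carry a transcript and less of it per cell cannot be told apart.

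Mpo encodes myeloperoxidase, the heme enzyme that gives primary granules their peroxidase stain. Its level in CD11b+ replicates 1 to 4 was 41491, 36520, 37582 and 54323 CPM, and in CD11b- replicates 1 to 4 it was 5827, 3966, 1457 and 413 CPM. The lowest CD11b+ library stood 6.27 times above the highest CD11b- library. The means were 42479 ± 8180 and 2916 ± 2448 CPM (SD, n = 4 each), and the fitted difference was 15.2-fold (log2 3.93, SE 0.69, adjusted p = 0.00187). Ranked by share of library counts, which is not corrected for length, Mpo was gene number 2 of CD11b+ and number 21 of CD11b-. In CD11b- its 4 libraries spread 14.1-fold, against 1.49-fold in CD11b+.

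Elane encodes neutrophil elastase, the serine protease that degrades elastin and bacterial outer membrane proteins. CD11b+ replicates 1 to 4 held 20969, 18434, 17424 and 26893 CPM, and CD11b- replicates 1 to 4 held 806, 375, 104 and 47.1 CPM. The groups lay 21.6 times apart at their nearest libraries. Elane differed by 66.1-fold (log2 6.05, SE 0.85, adjusted p = 0.000481), and by 122-fold without CD11b- replicate 1. By share of library counts it was gene number 4 of CD11b+ and number 537 of CD11b-.

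Prtn3 encodes proteinase 3, the serine protease next to Elane on the chromosome. Its level was 1846, 1859, 1914 and 2376 CPM in CD11b+ replicates 1 to 4 and 101, 69.5, 12.05 and 1.72 CPM in CD11b- replicates 1 to 4. Within CD11b+ its libraries were the closest of the 5 genes, at 1.29-fold from lowest to highest. Within CD11b- they were the most spread, at 58.7-fold, and the lowest value rests on 47 counts. The fitted difference was 45.6-fold (log2 5.51, SE 1.03, adjusted p = 0.00262), or 74.0-fold without CD11b- replicate 1.

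Ctsg encodes cathepsin G, a chymotrypsin-like protease, and lies in a cluster with mast cell proteases and granzymes. It had the fewest counts of the 5 in every CD11b+ library, with 133, 138, 128 and 233 CPM in CD11b+ replicates 1 to 4 and 29.1, 19.1, 10.3 and 5.71 CPM in CD11b- replicates 1 to 4. CD11b+ replicate 4 stood apart from the other CD11b+ libraries, and the nearest libraries of the groups were 4.41 times apart. Ctsg differed by 10.2-fold (log2 3.35, SE 0.47, adjusted p = 0.000459), and its 5.10-fold range within CD11b- was the narrowest of the 5.

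Ms4a3 encodes a membrane protein with 4 membrane spans that is known from granulocyte-monocyte progenitors and regulates the cell cycle there. It is not a granule protein. Its level was 1144, 988, 984 and 1415 CPM in CD11b+ replicates 1 to 4 and 63.5, 48.8, 23.5 and 2.96 CPM in CD11b- replicates 1 to 4. The CD11b- libraries spread 21.4-fold, and all lay below the CD11b+ libraries. The difference was 33.9-fold (log2 5.08, SE 0.76, adjusted p = 0.000703).

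**Figure D1:**
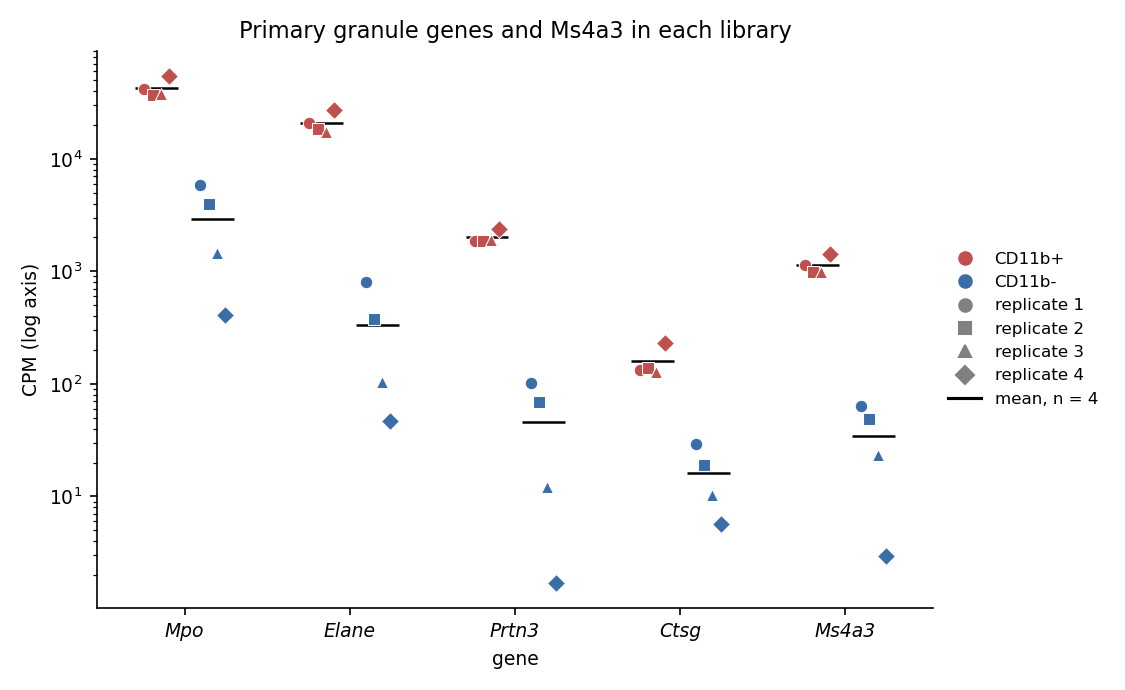
CPM (log axis) of Mpo, Elane, Prtn3, Ctsg and Ms4a3 in every library, with red points for CD11b+, blue points for CD11b-, a shape for each replicate number and a black line at the mean of 4. For every gene the CD11b- libraries lie below all CD11b+ libraries and spread far more, from 5.10-fold for Ctsg to 58.7-fold for Prtn3.

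The CD11b- libraries kept one order for all 5 genes: replicate 1 was highest, then 2, then 3, and replicate 4 was lowest. That order was also found in 4.17% of all genes tested and in 6.91% of those called higher in CD11b+. Set against the CD11b+ mean, Mpo stood at 13.7%, 9.34%, 3.43% and 0.973% in CD11b- replicates 1 to 4. Elane stood at 3.85%, 1.79%, 0.497% and 0.225%, and Prtn3 at 5.05%, 3.48%, 0.603% and 0.0860%. The 5 genes therefore did not keep a common percentage within a library. Ctsg stood at 18.4%, 12.1%, 6.52% and 3.61%, the highest of the 5 in every CD11b- library, and Ms4a3 at 5.61%, 4.31%, 2.07% and 0.262%. The highest and lowest of the 5 percentages were 4.77 times apart in replicate 1, 6.75 in replicate 2, 13.1 in replicate 3 and 41.9 in replicate 4.

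Transcripts of other granulocytes were read in the same CD11b- libraries on the same scale. Ngp, an abundant protein of secondary granules, stood at 0.194%, 0.145%, 0.853% and 0.212% of its CD11b+ mean, and Camp, the cathelicidin precursor, at 0.189%, 0.193%, 0.440% and 0.256%. Both were highest in replicate 3 and did not follow the order of the 5 genes. Their levels in replicates 1 and 4, where Mpo was highest and lowest, were not far apart. Prg2, the eosinophil major basic protein, followed the order of the 5 genes with 3.06%, 1.76%, 0.432% and 0.189%, and so did the basophil protease Prss34, with 195%, 101%, 18.9% and 9.13%. Mcpt8, a basophil protease of the chromosomal cluster that holds Ctsg, stood at 153%, 111%, 13.9% and 12.9%. Over the whole lists, the same order of CD11b- libraries was found in 6 of 18 genes listed as factors of granule genes. It was found in 5 of 17 granulocyte-monocyte progenitor genes. It was also found in 3 of 10 tested basophil and mast cell genes, 2 of 11 eosinophil genes and 0 of 19 secondary and tertiary granule genes.

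Summed over all measured list genes, the basophil and mast cell list held 4588, 2524, 481 and 259 CPM in CD11b- replicates 1 to 4, with the mast cell tryptase Tpsb2 at 0 in all libraries, and 1655 to 4577 CPM in CD11b+. Most of its CD11b- sum was Prss34, at 4105, 2139, 399 and 193 CPM in replicates 1 to 4. The eosinophil list held 719 to 1025 CPM in CD11b- and 7451 to 21495 in CD11b+. Most of its CD11b- sum was Cd24a, a surface protein also found on other marrow cells and called lower in CD11b+ (6.43-fold, adjusted p = 5.63e-06). Without Cd24a the list held 476, 331, 71.6 and 82.7 CPM in CD11b- replicates 1 to 4, high in replicates 1 and 2, beside 7357 to 21376 CPM in CD11b+. The secondary and tertiary granule list held 407, 367, 980 and 453 CPM in CD11b- and 73189 to 101315 in CD11b+. Of its CD11b- sum, Cyba held 148, 124, 145 and 134 CPM and Cybb 54.3, 41.2, 41.7 and 80.5 CPM in replicates 1 to 4. Both are also on the NADPH oxidase list. The mature neutrophil list held 490 to 847 CPM in CD11b- and 1071 to 1220 CPM in CD11b+, with Gm5483 at 0 in all libraries. Mxd1, a MAX-binding repressor called lower in CD11b+ (2.59-fold, adjusted p = 0.00126), made up most of that CD11b- sum, and without it the list held 87.2 to 133 CPM in CD11b- and 891 to 1013 CPM in CD11b+. The part of each of these cell types in the levels of the 5 genes was not tested.

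**Figure D2:**
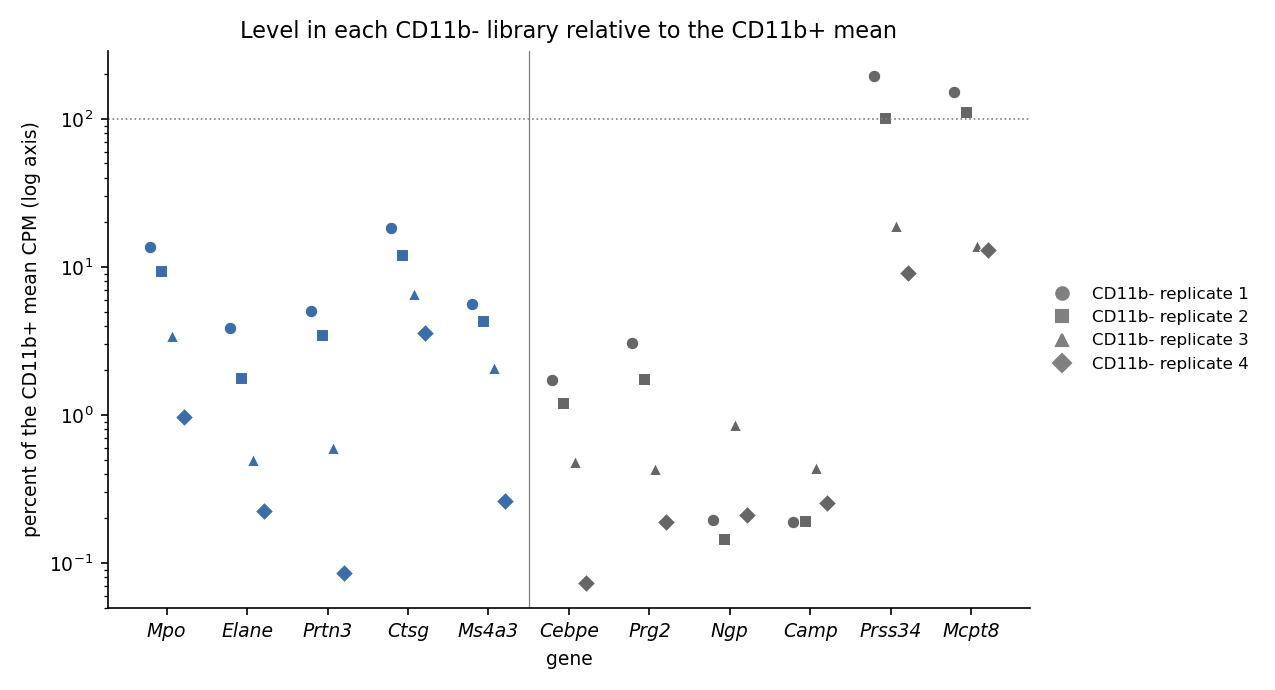
Level in each CD11b- library as a percent of the mean CPM of the 4 CD11b+ libraries (log axis), with a shape for each CD11b- replicate, for the 5 genes (blue, left of the line) and for Cebpe, Prg2, Ngp, Camp, Prss34 and Mcpt8 (grey). The dotted line marks 100%. Ctsg is the highest and Elane or Prtn3 the lowest of the 5 in each library, while Ngp and Camp lie below 1% in all 4.

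The proportions among the 5 genes were nearly fixed in CD11b+ and different in CD11b-. Mpo made up 63.0% to 64.8% of the counts of the 5 genes in CD11b+ and 85.4% to 90.7% in CD11b-, whereas Elane made up 30.02% to 31.97% and 6.48% to 11.8%. A ratio of a pair of genes within a library does not depend on library size. Of the 10 ratios among the 5 genes, 9 had groups that did not overlap. Each of these 9 reached the smallest two-sided p that an exact permutation test of 4 against 4 can give, p = 0.0286, or 0.0317 adjusted over the 10 ratios. Over all genes tested, 36.5% had CPM values that did not overlap in either direction. That share is of single genes, and no such share was computed for ratios of gene pairs. The 10 ratios are built from 5 genes and are not independent of each other.

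The ratio of Mpo to Elane differed clearly between the sorts. In CD11b+ replicates 1 to 4 the ratio of counts was 1.98, 1.98, 2.16 and 2.02, and in CD11b- replicates 1 to 4 it was 7.23, 10.6, 13.99 and 8.78. Every CD11b- library thus held more Mpo per Elane than any CD11b+ library, by 4.84-fold at the geometric means (log2 difference 2.28 in size, SE 0.21). CD11b- replicate 4, the lowest in both genes, lay between replicates 1 and 2. Counts per length showed the same change as a switch of order. Divided by exon length (3143 bases for Mpo and 984 for Elane), Elane stood 1.48 to 1.61 times above Mpo in all 4 CD11b+ libraries, and Mpo stood 2.26 to 4.38 times above Elane in all 4 CD11b- libraries.

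With Ctsg as the denominator, ratios were lower in CD11b- than in CD11b+, Ctsg having the smallest fold of the 5. Elane over Ctsg was 116 to 157 in CD11b+ and 27.7, 19.6, 10.1 and 8.26 in CD11b- replicates 1 to 4, a 9.23-fold difference (log2 3.21, SE 0.42). Prtn3 over Ctsg was 10.2 to 14.9 in CD11b+ and 3.47, 3.63, 1.17 and 0.301 in CD11b-, an 8.94-fold difference (log2 3.16, SE 0.85) that was smaller without CD11b- replicate 4 (log2 2.40). In CD11b- replicate 4, Ctsg with 156 counts outnumbered Prtn3 with 47, and the 95% exact Clopper-Pearson interval of their ratio, which covers counting error only, was 0.213 to 0.420. Mpo over Ctsg, at 233 to 311 in CD11b+ and 200, 208, 141 and 72.5 in CD11b-, differed by 1.91-fold, with the groups close at their nearest libraries.

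Mpo over Prtn3 was 19.6 to 22.9 in CD11b+ and 57.7, 57.1, 121 and 241 in CD11b- replicates 1 to 4. Mpo over Ms4a3 was 36.3 to 38.4 in CD11b+, the tightest of the 10 ratios there, and 91.7, 81.3, 62.0 and 140 in CD11b-. Both were higher in CD11b-, by 4.69-fold and 2.39-fold at the geometric means. Mpo over Ms4a3 lost its separation with a pseudocount of 10 CPM (exact permutation p = 0.171), where Ms4a3 in CD11b- replicate 4 was at 2.96 CPM. Ctsg over Ms4a3 was 0.117 to 0.165 in CD11b+ and 0.458, 0.392, 0.439 and 1.93 in CD11b-, a 4.56-fold rise of the geometric mean.

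The ratio of Elane to Prtn3, the neighbours on chromosome 10, was the one whose groups overlapped. Elane over Prtn3 was 9.11 to 11.4 in CD11b+ and 7.99, 5.39, 8.64 and 27.4 in CD11b- replicates 1 to 4 (log2 difference 0.05, SE 0.51, exact permutation p = 0.971). CD11b- replicates 1, 2 and 3 lay below all CD11b+ libraries and replicate 4 lay above them, so that without replicate 4 the groups did not overlap. In replicate 4 the ratio rests on 1288 and 47 counts, with a counting interval of 20.5 to 37.5. Elane over Ms4a3 was 17.7 to 19.0 in CD11b+ and 12.7, 7.68, 4.43 and 15.9 in CD11b-. Prtn3 over Ms4a3 was 1.61 to 1.94 and 1.59, 1.42, 0.513 and 0.580, and its groups were separated by a narrow margin (log2 difference 0.97, SE 0.43, and 0.24 without CD11b- replicates 3 and 4).

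**Figure D3:**
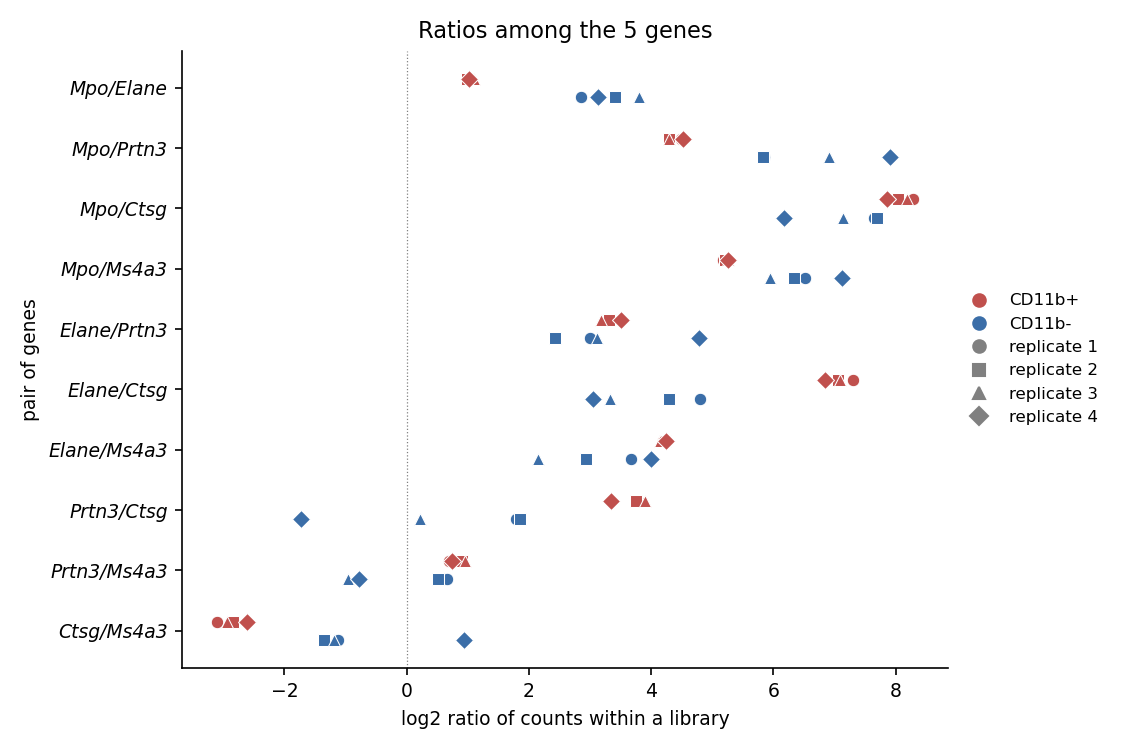
Log2 ratio of the counts of a pair of genes within each library, for all 10 pairs among the 5 genes, with CD11b+ in red above CD11b- in blue and a shape for each replicate number. The CD11b+ points cluster tightly for every pair, and the groups overlap only for Elane over Prtn3.

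The other genes of granule biology were read from the same comparison. Among 14 tested genes of granule cargo other than the 5, 12 were called higher in CD11b+, 1 was lower and 1 was not called, with a median log2 fold of 3.02, beside -0.013 over all genes tested. Fcnb, a ficolin that binds microbial sugars, stood at 4358 ± 549 against 3.43 ± 3.35 CPM (1256-fold, adjusted p = 0.000138, or 2128-fold without CD11b- replicate 3). Lyz2, the lysozyme of myeloid cells, was 40.0-fold higher (adjusted p = 1.63e-06). The lower gene was the lysosomal cysteine protease Ctsb, at 1982 ± 87.1 against 4970 ± 393 CPM, and the gene not called was Ctsd. Prss57, the serine protease known as NSP4, was singled out after its values were seen. It stood at 299, 276, 299 and 338 CPM in CD11b+ replicates 1 to 4 and at 10.1, 12.97, 0 and 4.46 CPM in CD11b- replicates 1 to 4 (46.2-fold, adjusted p = 0.00241), with no overlap and without the order of the 5 genes in CD11b-. By counting error alone, a count of 0 in that CD11b- library was taken to allow up to 0.0927 CPM.

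The processing and packaging list is mixed and did not move as a block. It covers activation of the granule serine proteases, protein folding and heme synthesis, among other steps. Its 16 genes gave 7 calls up in CD11b+, 3 calls down (Ctsc, Fech and Ppox) and 6 without a call (median log2 fold 0.63). Ctsc, the peptidase that activates these serine proteases, was lower in CD11b+, at 53.0, 39.5, 57.7 and 79.7 CPM in replicates 1 to 4 against 86.7, 112, 83.9 and 124 CPM in CD11b-. The groups did not overlap, and the difference was 1.72-fold (adjusted p = 0.0284), a call lost without any one of 5 libraries (CD11b+ replicates 1, 2 or 3 and CD11b- replicates 2 or 4, adjusted p up to 0.0803) and with totals that leave out the 20 most abundant genes (adjusted p = 0.0618). Srgn, the core protein of serglycin, was 4.57-fold higher in CD11b+ (512 ± 145 against 116 ± 32.9 CPM, adjusted p = 0.000117). Calr, the chaperone calreticulin that assists myeloperoxidase folding, was 1.70-fold higher (adjusted p = 0.0403), a call lost when any 1 of 6 libraries was left out (all but CD11b+ replicate 2 and CD11b- replicate 2, adjusted p up to 0.111) or no scaling factor was used (0.0687). Alas1, the housekeeping first enzyme of heme synthesis, was higher by 50.9-fold (adjusted p = 0.0023), or by 85.2-fold when CD11b- replicate 1 was left out, while Fech and Ppox, which act at the end of that pathway, were lower by 18.9-fold and 13.7-fold. All 17 genes of the erythroid list, known for high heme synthesis, were also lower in CD11b+ (787 to 1327 summed CPM against 34935 to 46570).

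Among 10 tested inhibitors, 4 were higher, 1 was lower and 5 were not called. Serpinb1a, an inhibitor of elastase, proteinase 3 and cathepsin G in the cytoplasm, was 30.1-fold higher in CD11b+ (1264 ± 231 against 44.0 ± 24.2 CPM, adjusted p = 1.77e-05). In CD11b- replicates 1 to 4 it was measured at 63.1, 22.4, 23.6 and 66.7 CPM. It was thus high in replicates 1 and 4, which had the most and the least Elane. The other genes called higher were Slpi (8.08-fold), Wfdc21 (475-fold, and 2464-fold without CD11b- replicate 3) and Stfa1, which had no count in CD11b- and was at least 69.9-fold higher against a floor of 3 counts over that group. Cstb, a cystatin, was not called (37.3 ± 6.27 against 26.7 ± 6.27 CPM, adjusted p = 0.153). Serpinb6b was lower in CD11b+ by 40.9-fold (adjusted p = 0.0326), a value that CD11b+ replicate 1 decides (1035-fold without it), and its call was lost without CD11b+ replicate 2 (adjusted p = 0.0726) or without CD11b- replicate 1, 2 or 3 (0.0585, 0.0557 and 0.0622).

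Of 18 genes listed as factors of granule genes, 10 were higher in CD11b+, 2 were lower and 6 were not called (median log2 fold 1.24). Whether each of them acts on the 5 genes was not tested. Cebpe, the C/EBP factor of the promyelocyte to myelocyte transition, differed most, at 1104, 1038, 1299 and 1115 CPM in CD11b+ and 19.7, 13.8, 5.47 and 0.841 CPM in CD11b- replicates 1 to 4 (119-fold, adjusted p = 0.00016). In CD11b- it followed the order of the 5 genes. Spi1, which encodes PU.1, was 12.6-fold higher (442 ± 46.7 against 36.1 ± 13.03 CPM, adjusted p = 1.43e-05), and Gfi1, a repressor needed for granulocyte development, was 11.2-fold higher (257 ± 42.6 against 23.5 ± 4.43 CPM, adjusted p = 3.88e-06). Gfi1 in CD11b- stood at 25.7, 19.6, 28.7 and 19.97 CPM, a 1.46-fold range beside the 17.1-fold range of Elane. Myb was 2.24-fold higher (adjusted p = 0.00255), and Runx1 was not called (adjusted p = 0.149). Cebpa was 12.6-fold higher from low levels (16.6 ± 5.24 against 1.39 ± 1.47 CPM, adjusted p = 0.0316), a call lost without any CD11b+ library (adjusted p of 0.0520 to 0.0778) or without CD11b- replicate 3 (0.0556), and its fold was 19.3 without CD11b- replicate 1. The lower genes were Irf8, which favours the monocyte fate, by 4.03-fold (not called without CD11b- replicates 3 and 4, adjusted p = 0.0871), and the erythroid factor Gata1, by 13.4-fold.

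Genes of the granulocyte-monocyte progenitor were higher in 11 of 17 cases, lower in 1 (Sox4) and not called in 5, with Nkg7, a granule membrane protein, 7.29-fold and Clec12a, a myeloid lectin receptor, 37.3-fold higher. Secondary and tertiary granule genes were higher in 17 of 19 and lower in none (median log2 fold 7.53), among them Ngp at 62702 ± 11281 against 220 ± 211 CPM, a 283-fold difference that was 581-fold without CD11b- replicate 3. All 7 tested NADPH oxidase genes, whose product feeds myeloperoxidase with peroxide, were higher, from the membrane subunit Cybb (29.5-fold) to the small GTPase Rac2 (3.46-fold) among those named. Resident macrophage genes, of which the products of Adgre1 and Vcam1 were used to gate both sorts, were higher in 3 of 19 (Adgre1, Vcam1 and Slc40a1) and lower in 3 (C1qc, Fcna and Hmox1). The call of Slc40a1 was lost without CD11b+ replicate 2 (adjusted p = 0.0523), and that of C1qc without CD11b+ replicate 1 or 2 (0.0624 and 0.0552) or CD11b- replicate 2 (0.0665). Adgre1, which encodes F4/80, was at 91.3 ± 23.8 CPM in CD11b+ and 23.0 ± 7.02 in CD11b-.

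**Figure D4:**
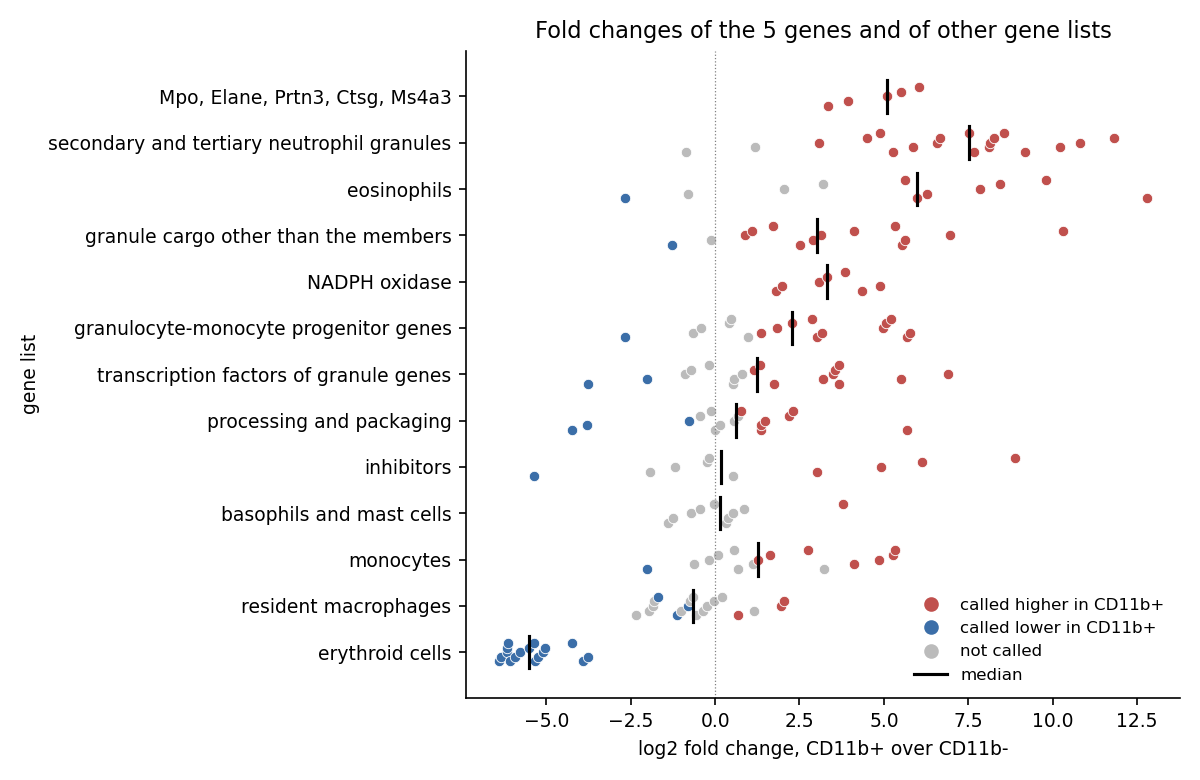
Log2 fold change of CD11b+ over CD11b- for the 5 genes and for the tested genes of 12 other lists, with red points called higher, blue points called lower, grey points not called and a black line at each median. Genes with no count in CD11b- (Stfa1, Itgb2l and Orm1) are drawn at their lower bound. The 5 genes lie between 3.35 and 6.05, below the median of the secondary and tertiary granule genes at 7.53.

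The relatives and neighbours of the 5 genes did not share one pattern. Epx, the eosinophil peroxidase and nearest relative of Mpo, was at 2145, 1263, 2628 and 1917 CPM in CD11b+ and 70.6, 55.5, 0.0309 and 6.84 CPM in CD11b- replicates 1 to 4 (63.2-fold, adjusted p = 0.00766, and 99.25-fold without CD11b- replicate 1). Its CD11b- libraries were thus low in replicate 3, where it rests on 1 count, rather than in replicate 4 as for Mpo. Ptgs1, a cyclooxygenase of the same peroxidase superfamily, was higher by 16.0-fold (adjusted p = 0.0194), and by 33.8-fold when CD11b- replicate 1 was left out, but was not called without CD11b- replicates 3 and 4 (adjusted p = 0.121). Of 8 tested genes of the MS4A family other than Ms4a3, Ms4a6c was higher (3.10-fold, adjusted p = 0.0182, lost without CD11b+ replicate 2, 3 or 4, up to 0.0533), Ms4a4b was lower (10.4-fold, adjusted p = 0.0433, lost in 7 of 8 leave-one-out fits, up to 0.0910) and 6 were not called. Ms4a2, a basophil receptor subunit, was at 12.7 ± 7.21 and 13.4 ± 12.2 CPM (adjusted p = 0.990).

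Near Elane and Prtn3, 2 of 7 tested genes were higher, Palm (11.5-fold, adjusted p = 0.00112) and R3hdm4 (3.13-fold, adjusted p = 0.00019), and 5 were not called. Cfd, the neighbouring gene for complement factor D, was at or under 1.30 CPM in every library and was not tested. Near Ctsg, Mcpt8 (123 ± 78.0 against 89.5 ± 86.8 CPM, adjusted p = 0.677) and Nova1 were the genes tested, and neither was called. SmartSeq2 does not mark strand, so reads from overlapping genes could not be separated.

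Genes with a pattern like each of the 5 were ranked by the root mean square difference between log2(CPM + 1) values over the 8 libraries after each gene's mean was removed, among 7760 genes with a mean of at least 10 CPM. Elane was nearest to Prg2 (0.438) and Cebpe (0.453), followed by Igsf6, Clec5a and Cebpd. Prtn3 had the same pair first, at 0.604 and 0.663, and then Cebpd, Trem3 and Igsf6, but Elane itself was nearer to it, at 0.469. Mpo was nearest to Tmem38b (0.333), Chst13, Nod1, Alox5ap and App, and the nearest of the other 4 genes was Ms4a3, at 0.603. Ctsg was nearest to Adgrg3 (0.261), Gatm, Enpp5, Nkg7 and Ldhb, all at a shorter distance than Mpo (0.717), the nearest of the 5. Ms4a3 was nearest to Cebpd (0.375), Trem3, Csf3r, Tmem38b and Slc39a11. These distances describe 8 libraries of a pair of sorts, and a difference between the sorts that a pair of genes shares counts toward their likeness. The added 1 CPM alters them at low levels. Tmem38b, Chst13, Cebpd and Csf3r had no count in CD11b- replicate 4, where Mpo was at 413 CPM. Nod1 was at 0.183 and Clec5a at 0.0366 CPM there. By counts, Mpo over Ctsg differed less between the sorts than Mpo over Ms4a3 (1.91-fold and 2.39-fold). It varied more within CD11b- (log2 SD 0.70 and 0.49).

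Over the 4 CD11b- libraries alone, the genes most like Mpo were Slc6a6 (0.0991), Aldh4a1, Cebpe (0.146), Tnfsf14 and Emb. In CD11b- replicate 4, Aldh4a1 and Tnfsf14 had no count and Cebpe was at 0.841 CPM, beside 413 CPM for Mpo. The added 1 CPM therefore makes these 3 genes look nearer to Mpo than their counts do. Slc6a6, a taurine transporter, stood at 34.9, 24.7, 7.94 and 2.01 CPM in CD11b- replicates 1 to 4 beside 57.4 ± 9.21 CPM in CD11b+. Emb, a membrane glycoprotein, stood at 69.7, 45.8, 24.6 and 5.85 CPM in CD11b- beside 69.4 ± 23.7 in CD11b+, so a gene could follow Mpo across the CD11b- libraries without a called difference between the sorts (adjusted p = 0.262). By this distance, Ms4a3 (0.299) and Elane (0.350) were the nearest of the 5 genes to Mpo within CD11b-. By ratios of counts, without the added 1 CPM, Elane was nearer than Ms4a3. The SD of the log2 ratio over the CD11b- libraries was 0.41 for Mpo to Elane and 0.49 for Mpo to Ms4a3.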

How the data were processed

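Per the labels, SmartSeq2 libraries were made from 4 biological replicates of each sort. The authors deposited whole-number counts per gene symbol for each library, in files whose names say FPKM, and a table of CPM, which dividing the counts by their totals gave back within 0.0005. The submitters' processing notes name the build mm9 and the tools TopHat2, DESeq2 and HTSeq 0.10.0 without roles. How reads mapping to several places were handled, the strand setting and the annotation are not given here, so counts of the related serine protease genes could share reads. Of 18817 rows, 27 carry numbers in place of symbols (0.205% to 0.514% of counts) and were left out. Library totals were then 36517568 to 47844998 counts in CD11b+ and 27337092 to 34996595 in CD11b-. A count of 0 was taken to allow up to 3 counts, so a library's floor was 0.0627 to 0.110 CPM. This floor covers counting error only and not the spread between replicates.

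The test was edgeR 4.0.16 in R 4.3.3 (TMM scaling, filterByExpr, quasi-likelihood test, Benjamini-Hochberg at 0.05, prior count 0.125, no covariate), over all 8 libraries. Ratios used counts and a two-sided exact permutation test, and their Clopper-Pearson intervals were computed with scipy. Lengths are merged exons of GENCODE M21 protein-coding transcripts, and promoter windows are RefSeq's, on GRCm38.p6. The code was tested on simulated data. Members, lists and rules were chosen with earlier results of these data known. Named are the 5 genes, in each of 20 lists the 2 most abundant genes, the called gene with the largest fold each way and genes needed to state counts of 5 or fewer, a few regulators and neighbours chosen by name, and the 5 genes most alike in pattern to each of the 5. Alternatives were DESeq2 1.42.0, limma 3.58.1, RLE size factors, no scaling, totals without the 20 most abundant genes, other filters, ratio pseudocounts of 1 and 10 CPM, coding lengths, the replicate number as a block and fits that leave out each library in turn. After the data were seen, these were added: levels scaled with TMM, list sums without Cd24a or Mxd1, and leaving out CD11b- replicates 1 and 2 or 3 and 4.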

Additional observations from a re-analysis of the deposited data

Results flagged for a closer look

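In groups of 4, a sample was singled out where its gap to the nearest other, divided by the range of the group, passed Dixon's 95% critical value of 0.829. Chance does this in about 1 in 20 groups, and 58 groups were examined. Prtn3 in CD11b+ replicate 4, at 2376 CPM, lay above the other CD11b+ libraries at 1846 to 1914 CPM. Ctsg in CD11b+ replicate 4, at 232.8 CPM, lay above 128 to 138 CPM in the others. Replicate 4 was also the highest CD11b+ library for Mpo, Elane and Ms4a3. The ratio of Ctsg to Ms4a3 in CD11b- replicate 4, at 1.926 from 156 and 81 counts (95% exact counting interval 1.46 to 2.55), lay above 0.392 to 0.458 in the other CD11b- libraries.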

How the results depend on the processing

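All 5 genes were called higher in CD11b+ under all 18 alternatives. Their folds ran from 9.28 to 44.9 for Mpo, 38.1 to 276 for Elane, 25.1 to 284 for Prtn3, 7.02 to 19.7 for Ctsg and 21.6 to 83.6 for Ms4a3. The lower end came without CD11b- replicates 3 and 4 and the upper end without replicates 1 and 2. With a replicate block the folds were 20.7, 104, 85.6, 11.4 and 44.9 (adjusted p up to 0.0105), and 3195 genes were called in all, beside 3549 with no block. Same-numbered libraries did not vary together (r of 0.002 to 0.043, with 2 of 8 libraries closest to their own number), so the numbers were not taken as pairs. Among genes named beside the 5, the block ended the calls of Calr, Stfa1, C1qc, Chst13, Ms4a4b and Ms4a6c (adjusted p of 0.0585 to 0.101). Leaving out 1 library gave 3035 to 3418 calls, DESeq2 4736 (4243 genes had no adjusted p) and limma 4485. Totals without the 20 most abundant genes moved the median log2 fold of all genes from -0.013 to 0.094. Leaving out 1 library gave 9 or 10 ratios without overlap, and 10 came without CD11b- replicate 4. With a pseudocount of 10 CPM, Elane over Prtn3 was separated (log2 difference 0.92, exact permutation p = 0.0286) and Mpo over Ms4a3 was not (-0.50). That pseudocount exceeds the 1.72 CPM of Prtn3 in CD11b- replicate 4. With a pseudocount of 1 CPM, Elane over Prtn3 was not separated (0.24, exact permutation p = 0.571). Prtn3 and Ms4a3 in CD11b- replicate 4 rest on few counts, 47 and 81.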
